A study of Homo sapiens with 4 samples.

Results

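The genes described here are 48 components and regulators of DNA replication, chosen by name from the 61806 genes counted in RNA sequencing of a breast cancer line, MDA-MB-231, and a melanoma line, MDA-MB-435. They comprise the subunits of the origin recognition complex (ORC), the licensing factors CDC6 and CDT1, the MCM helicase, its activators, the sliding clamp and its loader, the replicative polymerases and primase, replication protein A, flap and nick processing enzymes, enzymes of deoxynucleotide supply, the CAF-1 histone chaperone, E2F1 and SLBP. Each line was sequenced as an untreated control and after CPYPP, a small molecule that inhibits DOCK proteins, which activate Rac and related GTPases, given at 10 µM for 6 h. Both lines are labelled wild type, and no vehicle is named for the controls. The question was which replication genes moved with the drug in cells that the study followed into paraptosis, a form of cell death with cytoplasmic vacuoles. Each of the 4 conditions is represented by 1 library without a replicate.

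Every test on the reads of a control and a CPYPP library therefore compares those libraries, not the conditions, and the 95% intervals given cover counting error only. They are exact binomial (Clopper-Pearson) intervals for a value or for a fold between a pair of libraries, and normal approximations from the 4 counts of a gene for a difference between the lines. The libraries held between 17196385 and 22663954 counts. The melanocyte lineage genes SOX10, S100B and DCT had between 464 and 3031 counts in the MDA-MB-435 libraries and at most 3 in those of MDA-MB-231. The pigment genes PMEL, MLANA and TYR, in contrast, had at most 14 counts in either MDA-MB-435 library, and MITF had 690 to 1585 counts in all 4 libraries. EGFR, abundant in MDA-MB-231, had 12150 and 8161 counts there and 70 and 33 in the melanoma line. The keratins KRT7, KRT8 and KRT19 had 2225 to 14488 counts in MDA-MB-231 and at most 625 in the melanoma line. KRT18 and KRT81 separated the lines less. KRT18 had 8212 and 5653 counts in MDA-MB-231 and 5740 and 4077 in the melanoma line, and KRT81 had 2873 and 2007, and 1366 and 959. Positions are those of GRCh38, which the coordinates in the count table match.

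Before S phase, ORC marks origins and, with CDC6 and CDT1, loads the MCM double hexamer onto DNA in an inactive state, a step called licensing. In S phase, CDC45 and GINS join MCM to form the active helicase, DNA polymerase alpha-primase lays down primers, and the clamp loader RFC places PCNA on them so that DNA polymerases delta and epsilon can extend. Many of these genes are transcribed at the transition from G1 to S phase under E2F transcription factors, and several gene products are also controlled by degradation, which transcript counts do not show. In bulk RNA a change in the share of cells in S phase and a change in transcript per cell cannot be told apart.

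All 48 genes had at least 10 counts in each of the 4 libraries and all were tested, so none was lost to the filter on low counts. RefSeq promoter windows of GRCh38.p14, reaching from 250 bases before to 50 bases after a transcription start, were at hand for 42 of the 48. MCM4, MCM5, GINS4, POLD3, RPA2 and RPA3 had none. The E2F letters TTTGGCGC or TTTCCCGC or TTTGCCGC or TTTCGCGC, searched on both strands, were in a window of 19 of the 42 genes (45.2%), against 3.99% of 27305 genes with a window. The CCAAT letters were in 59.5% of the replication genes and 39.7% of all genes. GC box letters, GGGCGG, were in 76.2% and 48.3%. The letters TTTGAA, the core of the cell cycle homology region of late cell cycle genes, were in 1 of the 42 replication genes (2.38%), RRM1, and in 18.2% of all genes. The TTTGAA and GC box letters are equally long, CCAAT is shorter and the E2F letters are longer, no set contains another, and a match of letters is not a binding site.

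Stretches of 4 windows that hold E2F letters are printed to show how these letters lie before the RefSeq start. The stretches next to the starts of ORC6 and GINS1 are printed because these were the replication genes called in the test of a change common to both lines, given below. All run 5′ to 3′ in the direction of the gene, in lower case, with E2F letters or their reverse complement in capitals. In MCM6, 2 matches on opposite strands overlap at each of 2 places. No E2F letters lie in the stretch of ORC6 or anywhere in its window. In GINS1 the match lies after the start, outside the stretch. Other annotated starts lie further upstream for some genes. In the E2F1 stretch 19 bases, and in the ORC6 stretch 16, lie in an annotated exon of the same gene. The GINS1 stretch lies in no exon but inside the span of GINS1 in the count table, which begins at 25391008. The stretches are, in order, chr20:33686386-33686445 on the minus strand for E2F1, chr2:135876514-135876613 on the minus strand for MCM6, chr20:5126653-5126712 on the minus strand for PCNA, chrX:24693768-24693827 on the plus strand for POLA1, chr16:46689599-46689658 on the plus strand for ORC6 and chr20:25407613-25407672 on the plus strand for GINS1.
E2F1: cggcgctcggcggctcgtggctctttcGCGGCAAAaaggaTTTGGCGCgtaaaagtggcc
MCM6: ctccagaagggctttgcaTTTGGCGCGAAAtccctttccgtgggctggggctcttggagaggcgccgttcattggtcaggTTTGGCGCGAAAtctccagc
PCNA: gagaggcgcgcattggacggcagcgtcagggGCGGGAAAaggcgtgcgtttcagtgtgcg
POLA1: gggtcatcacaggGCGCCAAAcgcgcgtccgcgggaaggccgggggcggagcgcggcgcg
ORC6: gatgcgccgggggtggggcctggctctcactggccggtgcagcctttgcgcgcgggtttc
GINS1: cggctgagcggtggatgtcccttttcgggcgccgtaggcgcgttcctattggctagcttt

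Levels are given as FPKM, fragments per kilobase of exon scaled to the effective library size, which allows genes to be compared. PCNA, the sliding clamp that tethers polymerases to DNA, was the most abundant of the 48 in every library, at 171.6 FPKM in the control and 151.9 FPKM in the CPYPP library of MDA-MB-231 and 154.1 and 167.1 FPKM in those of MDA-MB-435. The least abundant was POLA2, the accessory subunit of DNA polymerase alpha, at 0.949 and 0.663 FPKM in MDA-MB-231 and 3.25 and 2.89 FPKM in the melanoma line. An unnamed gene on the same strand overlaps most of the POLA2 span, with up to 90.3% of its counts. The effect of this overlap on the POLA2 counts was not tested. The median level of the 48 genes was 15.03 and 14.77 FPKM in MDA-MB-231 and 15.1 and 18.3 FPKM in the melanoma line. Together the 48 genes accounted for 0.546% of all reads counted in untreated MDA-MB-231 cells (95% interval 0.543% to 0.549%) and 0.482% after CPYPP (0.479% to 0.485%). In MDA-MB-435 the shares were 0.557% (0.554% to 0.560%) and 0.537% (0.534% to 0.540%). The share of total counts was thus lower in the CPYPP library of each line, by more than counting error. Relative to the TMM effective library sizes used for the fold changes, the direction in the melanoma line turned, from 0.529% in the control to 0.566% after CPYPP, whereas in MDA-MB-231 the values were 0.533% and 0.494%.

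**Figure D1:**
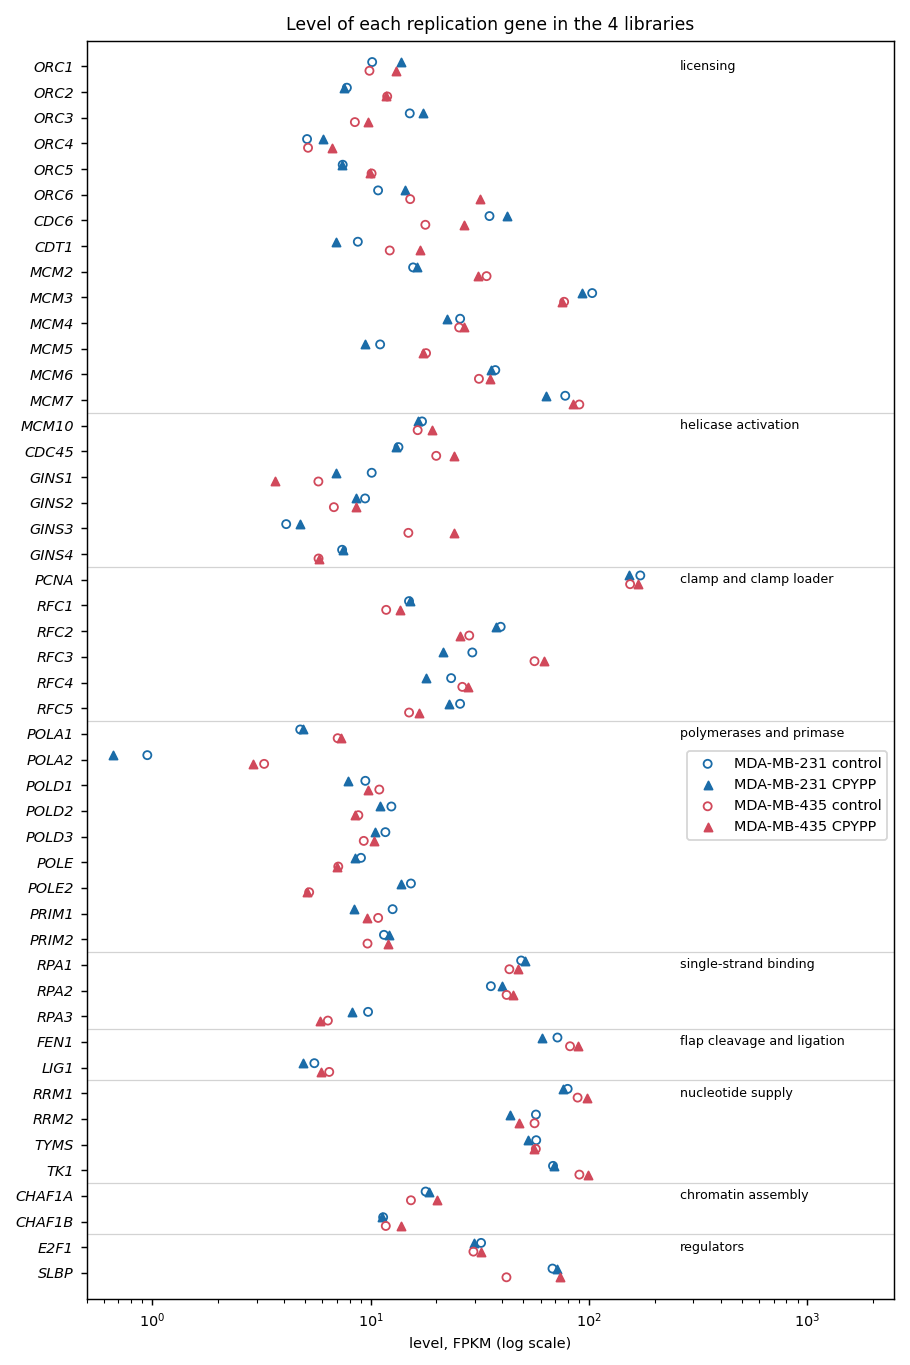
Level of each of the 48 replication genes in FPKM on a log axis, with open circles for control and triangles for CPYPP libraries, MDA-MB-231 in blue and MDA-MB-435 in red. Levels span from 0.663 FPKM (POLA2) to 171.6 FPKM (PCNA), and for most genes the 4 points lie close together compared with the spread between genes.

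In the untreated cells, the lines differed more than 2-fold, with an adjusted p under 0.05, in 5 of the 48 genes. Of these, 3 were higher in MDA-MB-435, where 22.2% of the 18269 genes tested were called, and 2 were lower, where 20.9% of all genes were called. GINS3, a subunit of the GINS helicase activator, had 480 counts in the MDA-MB-231 control and 1813 in the MDA-MB-435 control, a 3.52-fold higher level (3.19 to 3.91). POLA2, with the overlap given above, had 121 and 432 counts and was 3.33-fold higher in MDA-MB-435 (2.72 to 4.11). MCM2, a subunit of the hexameric helicase, was 2.11-fold higher (1.99 to 2.23). POLE2, the accessory subunit of DNA polymerase epsilon, had 1030 and 367 counts and was 3.01-fold higher in MDA-MB-231 (2.67 to 3.40). CDC6, the ATPase that recruits MCM to origins, was 2.02-fold higher in MDA-MB-231 (1.92 to 2.13). A smaller share of the 48 genes than of all genes was called between the lines.

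After CPYPP in MDA-MB-231, 0 of the 48 genes passed a 2-fold change with an adjusted p under 0.05 by the exact binomial test of edgeR, where 4.22% of 16441 genes were called higher and 3.09% lower. Without the fold threshold, 26 of the 48 had an unequal share of reads at that adjusted p, against 45.1% of all genes tested, with 6 higher and 20 lower after CPYPP. At a threshold of 1.5-fold, 0 were higher, against 8.55% of all genes, and 1 was lower, against 6.66%. In MDA-MB-435, 1 of the 48 passed 2-fold and was higher, against 3.17% of 16527 genes, and 0 were lower, against 6.52%. Without the fold threshold, 32 of the 48 had an unequal share of reads, against 50.8% of all genes, with 26 higher and 6 lower. With total counts the split in MDA-MB-231 was 4 higher to 28 lower, and it was 9 to 19 in the melanoma line. The split by direction of all genes without the fold threshold was not counted. With TMM factors, 51.2% of all genes tested in MDA-MB-231 and 51.4% in the melanoma line had a log2 fold change at or below 0. At 1.5-fold, 4 of the 48 were higher in MDA-MB-435, against 8.3% of all genes, and 1 was lower, against 11.4%. The 4 higher genes (CDC6, GINS3, ORC6 and SLBP) made up a share near that of all genes, and the lower genes in both lines made up a smaller one.

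Most replication transcripts thus stayed within 1.5-fold of their control. In MDA-MB-231, 47 of the 48 genes (97.9%) did so, compared with 75.7% of all genes tested and 85.2% of those with at least 50 counts. In MDA-MB-435, 43 (89.6%) did so, compared with 70.8% and 79.9%. The median log2 fold change of the 48 genes was -0.09 in MDA-MB-231, where that of all genes was -0.01, and 0.12 in MDA-MB-435, where that of all genes was -0.02. With total counts in place of TMM factors, the median of all genes in MDA-MB-435 moved to -0.16 and that of the 48 genes to -0.03. Relative to the median of all genes, a comparison that no scaling can alter because each shifts all genes of a line alike, the medians were -0.07 in MDA-MB-231 and 0.13 in the melanoma line. In MDA-MB-435 the scaling moved every log2 fold change by up to 0.149, so the sign of the small changes of 12 of the 48 genes depended on it (MCM4, GINS4, PCNA, RFC3, RFC4, POLA1, RPA1, RPA2, FEN1, RRM1, TK1 and E2F1). In MDA-MB-231 it moved them by up to 0.07, which affected the sign for 8 genes (MCM2, GINS4, RFC1, POLA1, RPA1, TK1, CHAF1A and SLBP).

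**Figure D2:**
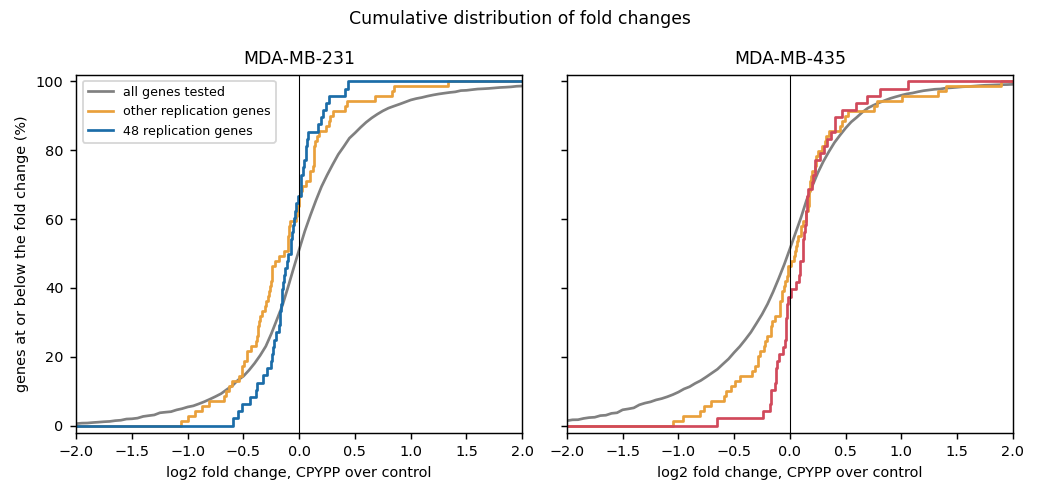
Percentage of genes (vertical axis) at or below a given log2 fold change of CPYPP over control (horizontal axis, TMM-normalized) in each line, for all genes tested, 69 other replication genes and the 48 replication genes (blue in MDA-MB-231, red in the melanoma line). The curve of the 48 genes is the steepest, running from -0.59 to 0.43 in MDA-MB-231 and from -0.66 to 1.06 in the melanoma line.

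A change common to both lines was tested with edgeR's quasi-likelihood test on all 4 libraries, blocked by line, which left 1 residual degree of freedom. Of the 48 genes, 1 was higher, ORC6, where 4.39% of 16801 genes were called higher, and 1 was lower, GINS1, where 2.85% were called lower. These are shares near or below the background.

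Among the licensing genes, ORC6 rose. ORC6 (ENSG00000091651, chromosome 16, 46689643 to 46698394, plus strand) encodes the smallest ORC subunit, which helps to load MCM. It had 1067 counts in the MDA-MB-231 control and 1042 after CPYPP, and 1559 and 2521 counts in the melanoma line. In MDA-MB-435 the treated library held more ORC6 reads although it was the smaller library, and in MDA-MB-231 the treated library held nearly as many. After normalization the level was 1.33-fold higher in MDA-MB-231 (1.22 to 1.45) and 2.09-fold higher in the melanoma line (1.96 to 2.22). The latter was the one change among the 48 genes past 2-fold, and it fell just short of 2-fold with total counts (log2 fold change 0.91) or upper quartile factors (0.95). The common log2 fold change was 0.70 with a standard error of 0.148 (adjusted p = 0.0194, edgeR's quasi-likelihood test), higher in 2 of 2 lines.

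The other ORC subunits, which form the ring that binds origin DNA, moved less. ORC1, the subunit with a role in cell cycle timing of the complex, had 726 and 719 counts in MDA-MB-231 and 735 and 754 in the melanoma line. Its log2 fold change was 0.43 (0.28 to 0.59) and 0.40 (0.26 to 0.55), so the lines agreed within counting error, but the common effect had an adjusted p of 0.146 by edgeR's quasi-likelihood test. ORC4 had log2 fold changes of 0.24 and 0.37 and ORC3 of 0.19 and 0.20, where MDA-MB-231 is given before the melanoma line, as for the other genes. At its ends ORC4 overlaps ACVR2A and MBD5 on the opposite strand, with up to 28.6% and 27.5% of its counts. The intervals of ORC2 and ORC5 included 0 in both lines. Within this complex the responses therefore spanned 0.48 log2 units in MDA-MB-231 and 1.09 in the melanoma line, with ORC1 and ORC6 at the respective upper ends.

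CDC6 and CDT1 together bring MCM to ORC, and geminin restrains CDT1. CDC6 had 4256 counts in the MDA-MB-231 control and 3747 after CPYPP, and 2255 and 2638 in the melanoma line. Its level rose 1.20-fold in MDA-MB-231 (1.15 to 1.26) and 1.51-fold in the melanoma line (1.43 to 1.60), and the common effect had an adjusted p of 0.0733 by edgeR's quasi-likelihood test. With total counts or upper quartile factors CDC6 in MDA-MB-435 fell short of 1.5-fold, at log2 fold changes of 0.44 and 0.48. CDT1 had 552 and 322 counts in MDA-MB-231 and 805 and 861 in the melanoma line. The reads of CDT1 were thus lower after CPYPP in MDA-MB-231, at a log2 fold change of -0.33 (-0.53 to -0.13), and higher in the melanoma line, at 0.46 (0.32 to 0.60), and these signs held under each of the 4 scalings. CDT1 also had the largest difference between the lines of the 48 genes, 0.79 log2 units (0.55 to 1.03).

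The 6 subunits of the MCM2 to MCM7 helicase had the narrowest range of response of ORC, MCM, GINS, RFC and DNA polymerase alpha-primase in each line. Their log2 fold changes ran from -0.29 (MCM7) to 0.06 (MCM2) in MDA-MB-231 and from -0.12 (MCM2) to 0.17 (MCM6) in the melanoma line. MCM3 and MCM7 were the most abundant, at 103.3 and 77.7 FPKM in the MDA-MB-231 control and 76.8 and 90.2 FPKM in the MDA-MB-435 control. MCM7 had 7812 and 4686 counts in MDA-MB-231 and 9442 and 6847 in the melanoma line, with log2 fold changes of -0.29 (-0.34 to -0.24) and -0.10 (-0.14 to -0.05). With TMM factors, MCM7 was the subunit of the 6 whose reads were lower after CPYPP in both lines at an adjusted p under 0.05. MCM2 was the one gene of the 48 whose difference between the lines had an interval wholly below 0, at -0.18 (-0.31 to -0.05).

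Helicase activation held the other gene called in the common test. GINS1 (ENSG00000101003, chromosome 20, 25391008 to 25452700, plus strand), a subunit of the tetramer that binds MCM and CDC45, had 1856 counts in the MDA-MB-231 control and 931 after CPYPP, and 1102 and 542 in the melanoma line. The treated library was low in both lines. The level fell 1.46-fold in MDA-MB-231 (1.35 to 1.58) and 1.58-fold in the melanoma line (1.42 to 1.75). The common log2 fold change was -0.64 with a standard error of 0.132 (adjusted p = 0.0169, edgeR's quasi-likelihood test), lower in 2 of 2 lines. NINL, on the opposite strand, starts at 25452697 and overlaps only the last bases of GINS1, which ends at 25452700. It had 311 and 144 counts in MDA-MB-231 and 362 and 182 in the melanoma line. Whether reads were counted by strand is not stated in the sources used here. The part of NINL in the GINS1 counts was not tested.

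The other GINS subunits did not follow GINS1. GINS3 (ENSG00000181938, chromosome 16, 58295080 to 58406147, plus strand) had 480 and 407 counts in MDA-MB-231 and 1813 and 2270 in the melanoma line. It rose 1.61-fold in MDA-MB-435 (1.52 to 1.72), whereas the 1.16-fold value in MDA-MB-231 (1.01 to 1.32) had an adjusted p of 0.0677 by edgeR's exact binomial test. With total counts or upper quartile factors GINS3 in MDA-MB-435 fell just short of 1.5-fold, at log2 fold changes of 0.54 and 0.58. GINS2 had log2 fold changes of -0.14 (-0.31 to 0.03) and 0.33 (0.15 to 0.51), and GINS4 of 0.02 and 0.01. The subunits of this tetramer, which assemble in equal number, thus had transcript responses that spanned 0.76 log2 units in MDA-MB-231 and 1.35 in the melanoma line, with GINS1 lowest and GINS3 highest in each line. CDC45 and MCM10, which complete helicase activation, had log2 fold changes of 0.27 and 0.22 in MDA-MB-435 and intervals that included 0 in MDA-MB-231.

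**Figure D3:**
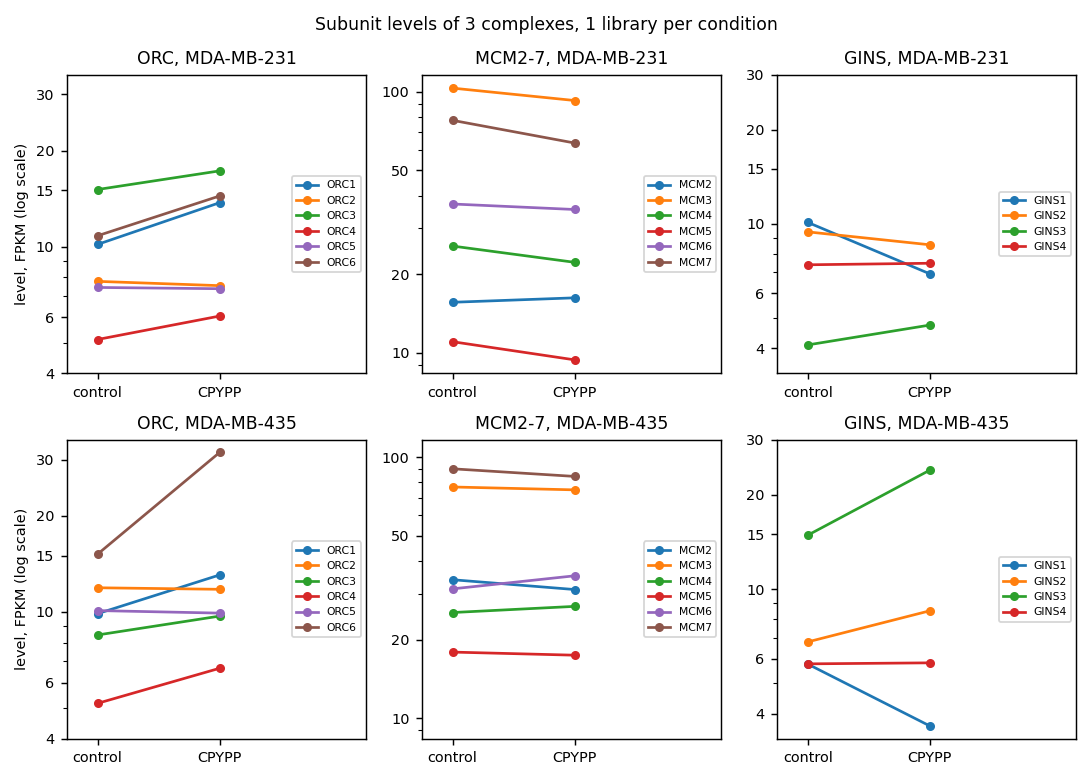
FPKM (log axis) of the subunits of ORC, the MCM2 to MCM7 helicase and GINS in the control and CPYPP libraries of each line, 1 library per point. ORC6 climbs from 15.2 to 31.6 FPKM in MDA-MB-435, the MCM lines are nearly flat, and within GINS the line of GINS1 descends while that of GINS3 climbs.

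In the clamp and its loader, the lines lay on opposite sides of 0 for PCNA, RFC3, RFC4 and RFC5, although with total counts PCNA, RFC3 and RFC4 were below 0 in both lines. RFC3, a small subunit of the pentameric loader, had 1911 counts in the MDA-MB-231 control and 1033 after CPYPP, and 3835 and 3288 in the melanoma line. Its log2 fold change in MDA-MB-231 was -0.44 (-0.55 to -0.33) and 0.14 (0.08 to 0.21) in the melanoma line. RFC4, another small subunit, had 1603 and 903 counts in MDA-MB-231 and 1879 and 1550 in the melanoma line, with log2 fold changes of -0.38 (-0.50 to -0.26) and 0.09 (-0.01 to 0.19). RFC5 had -0.17 and 0.15, while RFC1, the large subunit, had 0.02 and 0.21, and RFC2 had -0.07 and -0.13. PCNA had 5514 and 3578 counts in MDA-MB-231 and 5160 and 4339 in the melanoma line, with log2 fold changes of -0.18 (-0.24 to -0.11) and 0.12 (0.06 to 0.18). RFC4 overlaps EIF4A2, and RFC5 overlaps WSB2, both on the opposite strand and with more counts. These overlaps lie at the gene ends. EIF4A2 reaches to 186789897 and RFC4 begins at 186789880, and WSB2 begins at 118032687 and RFC5 reaches to 118033130. RFC3 shares its strand with an unnamed gene of up to 45.2% of its counts.

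Among the polymerases and primase, the lowest values were those of PRIM1 and POLA2 in MDA-MB-231, but not of the other subunits of the priming complex. PRIM1 (ENSG00000198056, chromosome 12, 56731296 to 56752374, minus strand), the catalytic subunit of primase, had 824 counts in the MDA-MB-231 control and 401 after CPYPP, and 737 and 509 in the melanoma line. It fell 1.51-fold in MDA-MB-231 (1.33 to 1.70), and its 1.12-fold lower value in the melanoma line (1.00 to 1.26) had an adjusted p of 0.0834 by edgeR's exact binomial test. The table's span of PRIM1 overlaps NACA on the same strand, which held up to 1357% of the PRIM1 counts. This overlap lies at the end of PRIM1, where NACA reaches to position 56731628. POLA2 had 121 and 62 counts in MDA-MB-231 and 432 and 298 in the melanoma line. Its log2 fold change of -0.52 in MDA-MB-231 had a wide interval (-0.98 to -0.06) and an adjusted p of 0.0538 by edgeR's exact binomial test. POLA2 overlaps an unnamed gene on the same strand and another on the opposite strand, with up to 90.3% and 37.1% of its counts. PRIM2, the large primase subunit, went the other way, with 0.08 (-0.03 to 0.19) and 0.31 (0.19 to 0.42), and POLA1, the catalytic polymerase subunit, had 0.04 and 0.05 with intervals that included 0.

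The lagging and leading strand polymerases moved little. POLD1, the catalytic subunit of DNA polymerase delta, had 1068 and 655 counts in MDA-MB-231 and 1289 and 883 in the melanoma line, with log2 fold changes of -0.26 (-0.40 to -0.11) and -0.18 (-0.30 to -0.05). Its reads were lower after CPYPP in both lines at an adjusted p under 0.05. POLD2 had -0.17 and -0.06 and POLD3 -0.15 and 0.16. POLE, the catalytic subunit of DNA polymerase epsilon, had -0.10 and -0.02, and POLE2 had -0.14 and -0.03, none of them with an adjusted p under 0.05. Replication protein A, which coats unwound single strands, had log2 fold changes of 0.06 and 0.13 for RPA1, 0.17 and 0.09 for RPA2 and -0.25 and -0.12 for RPA3. UMAD1, on the opposite strand, overlaps most of the RPA3 span, with up to 64.5% of its counts. The effect of UMAD1 on the RPA3 counts was not tested. The signs for RPA1 in both lines and for RPA2 in MDA-MB-435 depended on the scaling. FEN1, which trims Okazaki fragment flaps, had -0.23 (-0.31 to -0.15) and 0.12 (0.05 to 0.18), the latter below 0 with total counts, and LIG1, which seals the nicks, had -0.18 and -0.12. The span of FADS2, on the same strand, covers most of FEN1, with up to 106% of its counts. The effect of this overlap on the FEN1 counts was not tested.

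Of the enzymes that supply deoxynucleotides, RRM2 had lower reads in both lines. RRM2, the small and cell cycle regulated subunit of ribonucleotide reductase, had the most counts of the 48 genes, at 11971 in the MDA-MB-231 control and 6702 after CPYPP and 12289 and 8050 in the melanoma line. It was 1.31-fold lower in MDA-MB-231 (1.27 to 1.35) and 1.18-fold lower in the melanoma line (1.15 to 1.22), and the common effect had an adjusted p of 0.0777 by edgeR's quasi-likelihood test. The large subunit RRM1 had log2 fold changes of -0.07 (-0.12 to -0.02) and 0.14 (0.10 to 0.19), the latter below 0 with total counts. Relative to RRM1, RRM2 was lower by 0.32 log2 units in MDA-MB-231 and 0.39 in the melanoma line, a comparison that the scaling does not affect. TYMS, which makes thymidylate, had -0.13 and -0.03, and TK1, the salvage kinase of thymidine, had 0.01 and 0.12, with signs for TK1 that depended on the scaling. At one end TYMS overlaps ENOSF1 on the opposite strand, with up to 28.9% of its counts.

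SLBP rose in MDA-MB-435. SLBP (ENSG00000163950, chromosome 4, 1692731 to 1712344, minus strand) binds the stem-loop of replication-dependent histone mRNAs and is needed for their processing. It had 2934 counts in the MDA-MB-231 control and 2253 after CPYPP, and 1881 and 2553 in the melanoma line. The level was 1.05-fold higher in MDA-MB-231 (0.992 to 1.11, adjusted p = 0.168, edgeR's exact binomial test) and 1.75-fold higher in the melanoma line (1.65 to 1.86). In MDA-MB-435 it started at 41.8 FPKM and reached 73.2 FPKM, near the 68.0 and 71.2 FPKM of MDA-MB-231. CHAF1A and CHAF1B, subunits of CAF-1 that deposits histones behind the fork, had log2 fold changes of 0.40 (0.30 to 0.50) and 0.23 (0.12 to 0.34) in MDA-MB-435, above 0 under each of the 4 scalings, and 0.05 and -0.02 in MDA-MB-231. At one end CHAF1A overlaps UBXN6 on the opposite strand and CHAF1B overlaps MORC3 on the same strand, with up to 149% and 161% of their counts. E2F1, the activator of G1/S genes, had 1973 and 1336 counts in MDA-MB-231 and 1896 and 1594 in the melanoma line, with log2 fold changes of -0.11 (-0.21 to -0.01) and 0.12 (0.02 to 0.21).

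**Figure D4:**
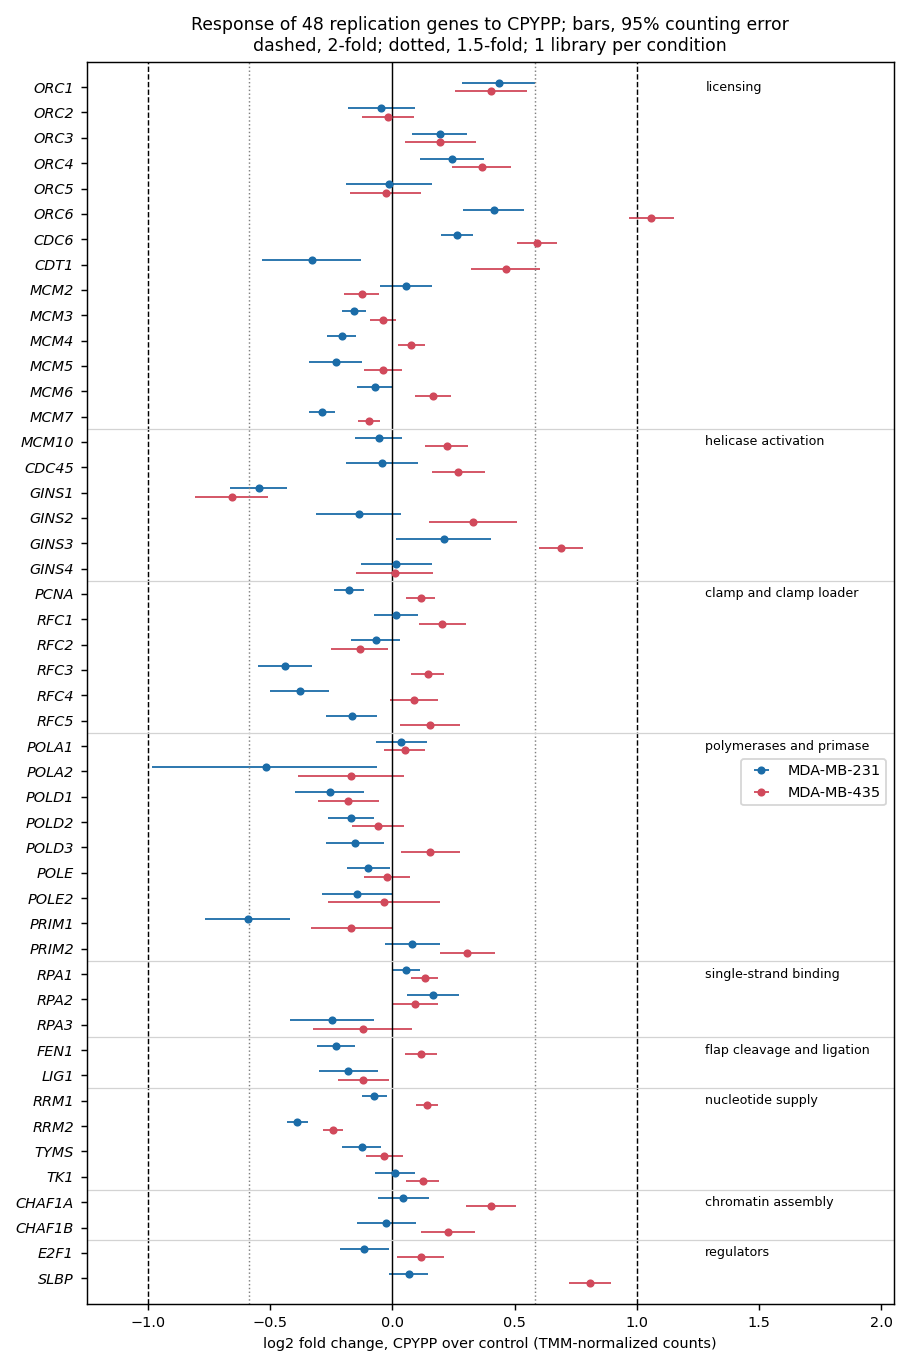
Log2 fold change of CPYPP over control for each of the 48 genes, ordered by role, with 95% intervals for counting error, MDA-MB-231 in blue and MDA-MB-435 in red. ORC6 in MDA-MB-435 is the one point past the dashed 2-fold line, GINS1 is low in both lines, and for 41 of the 48 genes the red point lies to the right of the blue one (34 of 48 with total counts). The matching share of all genes was not counted.

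The log2 fold change was larger in MDA-MB-435 than in MDA-MB-231 for 41 of the 48 genes, and for 34 with total counts, 43 with DESeq2 size factors and 37 with upper quartile factors. The share of all genes with the larger value in MDA-MB-435 was not counted. The median difference was 0.19 log2 units for the 48 genes and 0.03 for the 14262 genes tested in both lines. The interval of the difference excluded 0 for 29 genes, of which 28 were above 0 and 1, MCM2, was below. With total counts these numbers were 23 and 3. How many of all genes had an interval that excluded 0 was not counted, so these numbers cannot be called particular to the 48 genes. After CDT1, the differences were largest for SLBP at 0.74 (0.62 to 0.86), ORC6 at 0.65 (0.49 to 0.80) and RFC3 at 0.58 (0.46 to 0.71). With 1 library per condition the spread between cultures is unknown, so the difference between the lines was described and not tested. Across the 48 genes, which share their libraries and are not independent, the log2 fold changes of the lines were correlated with Pearson's r at 0.67 and Spearman's rho at 0.62. No correlation over all genes was computed beside these values.

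**Figure D5:**
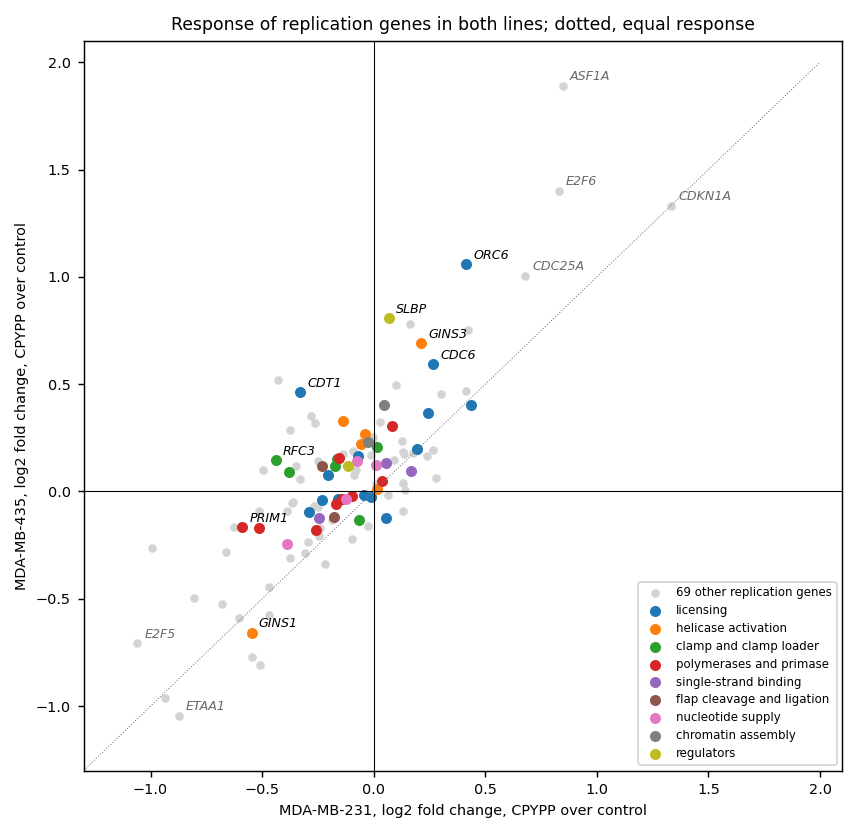
Log2 fold change of CPYPP over control in MDA-MB-231 (horizontal axis) and MDA-MB-435 (vertical axis) for the 48 genes, coloured by role, and 69 other replication genes in grey. Most coloured points lie above the dotted line of equal response, with ORC6 (0.41 and 1.06) at the upper end and GINS1 (-0.55 and -0.66) at the lower end.

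The 19 genes with E2F letters in a promoter window had a median log2 fold change of -0.14 in MDA-MB-231 and 0.05 in the melanoma line. The 23 genes with a window but no such letters had medians of -0.04 and 0.14. The range of the former reached from -0.55 to 0.26 in MDA-MB-231 and from -0.66 to 0.69 in the melanoma line, and that of the latter from -0.59 to 0.43 and from -0.24 to 1.06, so the groups overlapped over most of their range. Both ends of the former in MDA-MB-435 were GINS subunits, GINS1 and GINS3.

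The wider replication programme was described with 69 further genes that regulate licensing, protect forks, supply nucleotides, drive entry into S phase, chaperone histones or signal replication stress. Past 2-fold, 1 of them was higher in MDA-MB-231 and 1 lower, where 4.22% and 3.09% of all genes were called. In the melanoma line 4 were higher and 1 lower, where 3.17% and 6.52% of all genes were called. CDKN1A, the p21 inhibitor of cyclin-dependent kinases, had 1599 counts in the MDA-MB-231 control and 2948 after CPYPP, and 898 and 1753 in the melanoma line. It rose 2.52-fold in each line (2.37 to 2.68 and 2.32 to 2.73). CDC25A, the phosphatase that activates CDK2, rose as well, from 1395 to 1637 counts in MDA-MB-231 and from 995 to 1549 in the melanoma line, or 1.60-fold (1.49 to 1.72) and 2.01-fold (1.85 to 2.18). This inhibitor and this activator of the same kinase thus moved in the same direction. The other regulators of it given here were lower after CPYPP, except CCNE2 in MDA-MB-435. CDKN1B, another inhibitor, had log2 fold changes of -0.99 and -0.27. The cyclin genes CCNE1 and CCNA2 had -0.68 and -0.53, and -0.81 and -0.49, while CCNE2 had -0.38 and 0.28. In the common test 4 of the 19 listed genes of the G1/S transition were higher and 7 lower, beside 4.39% and 2.85% of all genes.

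ASF1A, a histone chaperone that hands histones to CAF-1, had 873 and 1151 counts in MDA-MB-231 and 444 and 1277 in the melanoma line, and rose 1.80-fold (1.65 to 1.97) and 3.71-fold (3.33 to 4.14). E2F6, a repressor of the E2F family, had 667 and 868 counts in MDA-MB-231 and 738 and 1512 in the melanoma line, and rose 1.78-fold (1.60 to 1.97) and 2.64-fold (2.42 to 2.89). E2F5, another repressor of the family, had 481 and 169 counts in MDA-MB-231 and 360 and 171 in the melanoma line, and fell 2.09-fold (1.75 to 2.50) and 1.63-fold (1.36 to 1.97). ETAA1, an activator of the checkpoint kinase ATR, had 710 and 284 counts in MDA-MB-231 and 1561 and 587 in the melanoma line, and fell 1.83-fold (1.59 to 2.11) and 2.06-fold (1.87 to 2.27). The treated library lay on the same side of the control in both lines for each of the 6 genes past 2-fold in either line.

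At 1.5-fold, MDA-MB-231 had 4 of the 69 higher and 9 lower, beside 8.55% and 6.66% of all genes. In the melanoma line 6 were higher and 6 lower, beside 8.3% and 11.4% of all genes. In MDA-MB-231 and the melanoma line, respectively, 56 and 57 stayed within 1.5-fold (81.2% and 82.6%). In the common test 5 of the 69 were higher and 11 lower, beside 4.39% and 2.85% of all genes. The 69 genes had a median log2 fold change of -0.14 in MDA-MB-231 and 0.04 in the melanoma line. Within this list the 19 cyclins, kinases, inhibitors and E2F genes of the G1/S transition ranged most widely, from -1.06 to 1.33 in MDA-MB-231 and from -0.96 to 1.40 in the melanoma line.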

How the data were processed

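Poly(A)-selected RNA of each line, as a control and after CPYPP, was sequenced, with 1 library per condition. The authors deposited raw read counts per gene, not normalized, with positions and exon lengths. The submitters' processing notes name cutadapt 1.9.1, HISAT2 2.2.1, HTSeq 0.6.1, DESeq2 and GRCh37.p13, but of 58254 identifiers also in GENCODE v29, 58241 have positions that overlap those of GRCh38, as do those of all 48 genes. The strand setting is not given in the sources used here. Of the 48 genes, 30 overlap another gene, and for 15 the neighbour had at least 10% of their counts in some library. The 18 annotated copies of 10 of the genes had at most 1 count each. The protocol texts speak of MDA-MB-435 throughout, so each library's line came from its cell line label.

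The analysis used R 4.3.3 with edgeR 4.0.16 and DESeq2 1.42.0, and in Python 3.11.15 with pandas 2.3.3 and scipy 1.17.1. In each line, genes with at least 10 counts in a library were tested with edgeR's two-sided exact binomial test on TMM effective library sizes, with Benjamini-Hochberg adjustment over all genes tested. Genes were called past 2-fold (the study's threshold) or 1.5-fold, with adjusted p-values under 0.05. Counts of 3 or fewer were set to 3. The common effect was fitted with edgeR's quasi-likelihood test (line and treatment, filterByExpr). Scripts were tested on simulated data. Depths of 17196385 to 22663954 counts gave a median half-width of 0.107 and 0.0974 log2 units for the intervals of the 48 genes in MDA-MB-231 and in the melanoma line, respectively. All 48 genes were open to naming. Of the 69 other replication genes those past 2-fold in either line are named, and CDKN1B, CCNE1, CCNA2 and CCNE2 are given beside CDKN1A and CDC25A. The 48 genes, the 69 others, the motifs and the 53 alternatives were chosen with earlier results of these data known.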

Additional observations from a re-analysis of the deposited data

Results flagged for a closer look

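For 8 of the 48 genes the reads were lower after CPYPP in MDA-MB-231 and higher in MDA-MB-435, each at an adjusted p under 0.05 by edgeR's exact binomial test. The difference of the log2 fold changes, MDA-MB-435 minus MDA-MB-231, was 0.79 for CDT1, 0.58 for RFC3, 0.35 for FEN1, 0.32 for RFC5, 0.31 for POLD3, 0.29 for MCM4, 0.29 for PCNA and 0.21 for RRM1. With 1 library per condition these differences between the lines were not tested. The share of all genes with such opposite directions was not counted, so the 8 cannot be called particular to the replication genes. With total counts or upper quartile factors in place of TMM, the opposite signs with an adjusted p under 0.05 in each line held for 1 of the 8, CDT1, and with DESeq2 size factors MCM6 and E2F1 joined the 8 to make 10.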

How the results depend on the processing

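The counts of replication genes past a fold threshold were small and moved with the scaling and with any assumed spread between cultures. In MDA-MB-231, the 1 gene past 1.5-fold became 3 with total counts (GINS1 at -0.62 and POLA2 at -0.59 joined PRIM1) and 2 with upper quartile factors (GINS1 at -0.59 joined), and 0 when a biological coefficient of variation of 0.1, 0.2 or 0.4 was assumed. The 0 genes past 2-fold in that line stayed at 0 under each alternative run. In MDA-MB-435, the 1 gene past 2-fold became 0 with total counts, upper quartile factors or an assumed coefficient of 0.2 or 0.4, and the 5 past 1.5-fold became 3 with total counts or upper quartile factors and 0 with 0.2 or 0.4. The median log2 fold change of the 48 genes in MDA-MB-435 was -0.032 with total counts and 0.0056 with upper quartile factors. The 2 genes with a common effect became 4 with total counts (PRIM1 and RRM2 joined), 4 without the filter on low counts (CDC6 and RRM2 joined), 5 with DESeq2 (CDC6, ORC1 and RRM2 joined) and 0 without the line as a block, where 0 of the 48 had an unadjusted p under 0.05. With the line as a block 8 of the 48 had one in edgeR and 10 in DESeq2. The share of all genes with an unadjusted p under 0.05 was not counted. Calls of a common effect over all genes were 1215 of 16801 in the main fit and 1930 with total counts. They were 1896 of 32210 without the filter, 2131 of 16801 with DESeq2 and 0 without the block. No gene called past 1.5-fold changed its sign under another scaling. Of the smaller changes in MDA-MB-435 that had an adjusted p under 0.05 with TMM factors, 8 changed sign with total counts, to -0.071 for MCM4, -0.032 for PCNA, -0.0043 for RFC3, -0.016 for RPA1, -0.032 for FEN1, -0.0069 for RRM1, -0.025 for TK1 and -0.033 for E2F1, and 1 with upper quartile factors, to -0.033 for MCM4. Of these, MCM4 with total counts had an adjusted p under 0.05 in the opposite direction, by edgeR's exact binomial test. No fit without a library was made, since it would leave a condition empty. Depth limits POLA2 in MDA-MB-231, with 121 and 62 counts, and the effect of its overlap with a gene on the same strand was not tested. The cause of these shifts was not tested beyond the scaling itself.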
